A study of Caenorhabditis elegans with 2 samples.

Results

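CCR4-NOT is the main complex that shortens the poly(A) tails of messenger RNAs in animals, and its 6 genes examined here in the worm Caenorhabditis elegans are let-711, ccf-1, ccr-4, ntl-2, ntl-3 and ntl-4. They are 6 of the 19973 protein-coding genes of the nuclear genome. The set was selected on a measured value, because let-711 held 2 peaks of the final peak list, and the other genes were added as subunits of the same complex. The final peaks of let-711 are therefore a description and not a finding, while the other 5 genes were not chosen for their own peaks.

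The peaks come from chromatin immunoprecipitation sequencing (ChIP-seq) of NFYA-1, the worm A subunit of the CCAAT-binding factor NF-Y, in whole young adult hermaphrodites of strain OP404. The strain carries the unc-119(tm4063) mutation on chromosome III and the integrated transgene wgIs404, which makes NFYA-1 with a GFP-FLAG tag at its C-terminal end, and an anti-GFP antibody was used. The samples were 1 group of 2 biological replicates, with no untagged or untreated group among them, so no comparison between groups was possible and no test across samples was run. A list of 30000 peaks was deposited for each replicate and for both pooled. A final list of 97 peaks held the 97 highest of the pooled list. The pooled list is named in the deposit as peaks and background, the input for the threshold of the final list. A pooled peak, as the word is used here, can therefore be background.

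Each peak carries a signal value, deposited by the authors on a scale that is not given, and its rank in its own list is used here (rank 1 is the highest). The depth behind these values is unknown, because the lists hold no read counts. The 3 long lists each hold 30000 peaks, and over all pooled peaks in protein-coding genes 45.2% were overlapped by a peak in both replicate lists, so that a peak of low rank is weak evidence of a site. In whole animals, binding in few cells and weak binding in many cannot be told apart. Positions are on build ce11, which is WBcel235, with the Ensembl annotation. A peak was given to a gene when its summit lay in the gene or within 1000 bp upstream of its start.

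In this complex the protein encoded by let-711, known as NOT1 in yeast and CNOT1 in mammals, is the long scaffold on which the other subunits assemble. CCF-1 and CCR-4 are the enzymes that remove the tail, the worm forms of CAF1 and CCR4. NTL-2 and NTL-3 are the worm forms of NOT2 and NOT3, which bind the scaffold near its C-terminal end, and NTL-4 is the form of NOT4, a RING-type ubiquitin ligase. In worms the complex is known for its role in the germline and the early embryo, where RNA-binding proteins and microRNAs bring it to their target messages.

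The 3 highest pooled peaks in let-711 are shown as the 101 bases at their summits, because they carry the strongest signal of the gene set. They are written 5′ to 3′ on the plus strand, which is the coding strand of let-711, and come from the RefSeq copy of WBcel235. Capitals mark the summit base at position 51 and any CCAAT on either strand.

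Peak of rank 46, chrIII:6952206-6952306: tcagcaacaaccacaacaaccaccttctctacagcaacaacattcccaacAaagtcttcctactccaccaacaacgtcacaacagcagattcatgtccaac

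Peak of rank 77, chrIII:6954774-6954874: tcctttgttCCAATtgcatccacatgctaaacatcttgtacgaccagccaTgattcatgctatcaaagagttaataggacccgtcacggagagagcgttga

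Peak of rank 127, chrIII:6953824-6953924: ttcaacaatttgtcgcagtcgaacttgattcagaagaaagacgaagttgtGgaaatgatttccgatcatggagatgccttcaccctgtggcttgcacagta

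All the peaks of the set lay in let-711, and the other 5 genes held none in any list. The scaffold gene held 2 final peaks, 6 pooled peaks, 7 peaks of replicate 1 and 6 peaks of replicate 2. Both enzyme genes, ccf-1 and ccr-4, and ntl-2, ntl-3 and ntl-4 held 0 peaks in the final, pooled, replicate 1 and replicate 2 lists. Thus 1 of 6 genes had a final peak and 1 of 6 had a pooled peak. The choice of let-711 fixed both, since the final peaks are part of the pooled list, and the 0 of the other 5 genes is the count that the choice did not use. Of all protein-coding genes 0.391% had a final peak and 58.7% a pooled peak, and the shares for the lists of replicate 1 and replicate 2 were 60.3% and 59.2%.

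The gene let-711 (WBGene00002845) covers chrIII:6946718-6958894 on the plus strand and is 12177 bp long. Its longest coding transcript, F57B9.2a.1, has 18 coding exons and encodes 2641 residues. Counted over all transcripts of a gene together, the coding sequence of let-711, 7923 bp, was the longest of the 6 by far. The next was ccr-4 with 2655 bp, while by residues of the longest transcript the next was ntl-4 with 798. The longest coding exon of let-711 measured 1617 bp, against 796 bp in ccr-4.

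The highest peak of let-711 stood at chrIII:6952111-6952400 with its summit 5538 bp from the start of the gene, in coding exon 11 and at residue 827. Its signal value was 42.3 in the pooled list (rank 46), 14.6 in replicate 1 (rank 569) and 23.8 in replicate 2 (rank 256). Among nuclear peaks alone its pooled rank was 20, since 26 mitochondrial peaks were also in the final list. The whole peak of 290 bp lay in coding sequence. A shorter transcript of let-711, F57B9.2d.1, starts 181 bp before this summit, and its annotated start lies within the same exon.

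The second final peak, chrIII:6954679-6954968, had its summit 8106 bp from the gene start in coding exon 14, at residue 1616. Here the signal value was 39.4 in the pooled list (rank 77). The replicates differed in rank, with rank 4181 (10.5) in replicate 1 and rank 80 (27.9) in replicate 2. Of its 290 bp, 288 were coding. In replicate 2 this was the highest peak of the gene, and in replicate 1, 4 of the other 6 peaks were higher.

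Between these, another peak at chrIII:6953729-6954018 just missed the final list. Its pooled signal value was 37.1 (rank 127), where the lowest final peak had 38.6 and the highest peak outside the final list had 38.5. It also lay in exon 14, at residue 1299, and had 11.9 (rank 2233) in replicate 1 and 25.5 (rank 147) in replicate 2. In replicate 2 it ranked above the highest pooled peak of the gene.

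The other 3 pooled peaks of let-711 were weaker. The one at chrIII:6955499-6955788 in exon 15 had a pooled signal value of 26.6 (rank 1904), and the next in the same exon, at chrIII:6956227-6956516, had 22.3 (rank 5397). The peak nearest to the gene start, at chrIII:6950567-6950856 with its summit in exon 10, had 19.1 (rank 10754), a little above the median of the pooled list, 17.5. It was overlapped by a replicate 1 peak of rank 4566 and by none of replicate 2.

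**Figure D1:**
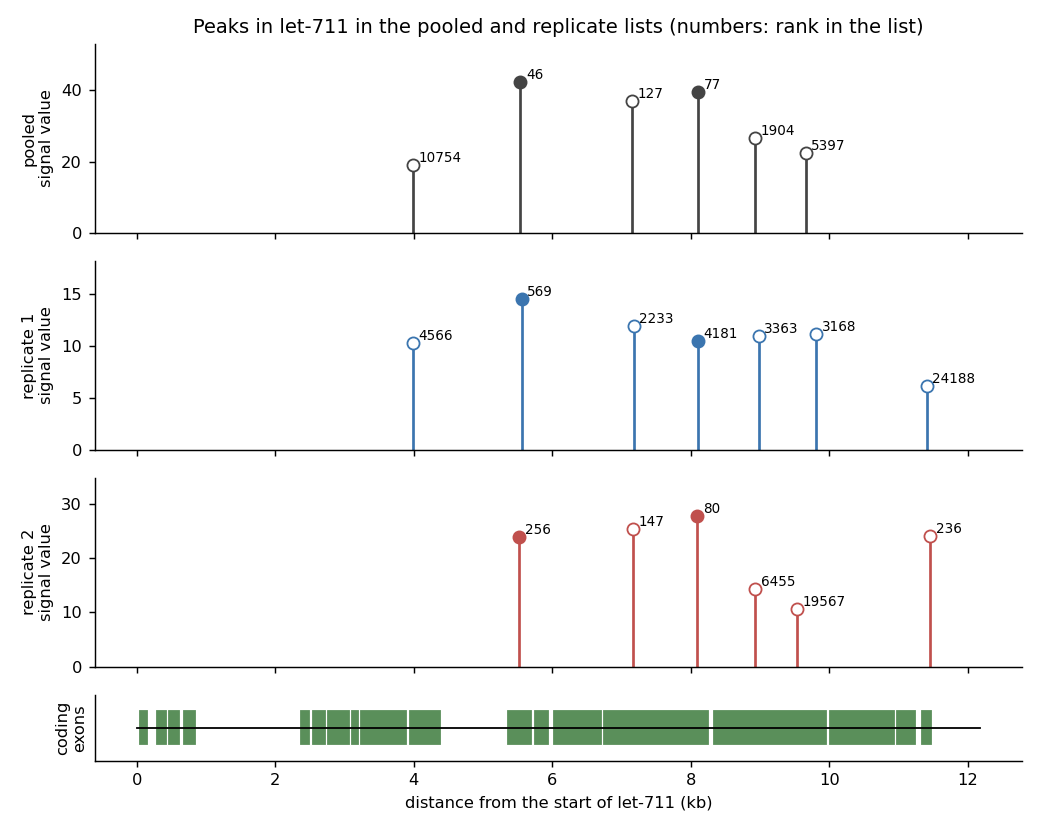
Signal value (vertical axis, the authors' scale for each list) of every peak in let-711 by distance of its summit from the gene start (kb), for the pooled list and both replicate lists, with the coding exons of the longest transcript below. Filled circles overlap a final peak, open circles do not, and numbers are ranks: the final peaks have ranks 46 and 77 in the pooled list, and the replicate 2 peak of rank 236 near the end of the gene has no pooled counterpart.

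The peaks were spread over the middle and the later part of the gene. All 6 pooled summits lay in coding exons, at 3994 to 9654 bp from the gene start, and the first 9 coding exons held none. Exon 10 and exon 11 held 1 summit each, and exons 14 and 15, the longest with 1497 and 1617 bp, held 2 each. Neighbouring summits were 728 to 1618 bp apart. Over all pooled peaks given to protein-coding genes, 57.4% of 24460 had the summit in a coding exon, and over the nuclear final peaks 83.1% of 71 did. No other gene started within 1000 bp of a pooled summit in let-711.

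The replicates found most of the same places in let-711 and ordered them differently. Of the 6 pooled peaks, 6 were overlapped by a replicate 1 peak and 5 by a replicate 2 peak, so that 5 were in both lists. When summits had to lie within 100 bp, 4 were in both. The peak of rank 5397 was met only at its edges, by replicate summits at chrIII:6956529 and chrIII:6956245. Beside the 45.2% of all pooled peaks in protein-coding genes, the share overlapped in both lists was 98.3% over the 120 of these with rank 150 or better. In replicate 1 the 6 overlapping peaks had signal values from 10.3 to 14.6, all of them within ranks 569 to 4566. In replicate 2 the values ran from 10.7 to 27.9, and 3 peaks of ranks 80, 147 and 256 stood well above the others, of ranks 6455 and 19567. The median signal value was 7.51 in the replicate 1 list and 11.7 in the replicate 2 list, so values are read within each list only.

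Set beside the 71 nuclear final peaks, the 2 of let-711 had unlike support from the replicates. By rank in replicate 1, 31 of the 71 were better than the peak in exon 11 and 60 were better than the peak in exon 14. By rank in replicate 2, 54 and 28 of the 71 were better. The median ranks of the 71 were 736 in replicate 1 and 98 in replicate 2. All 71 were overlapped by a peak in both replicate lists, and they were selected on the pooled signal, so these positions describe the peaks and test nothing.

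**Figure D2:**
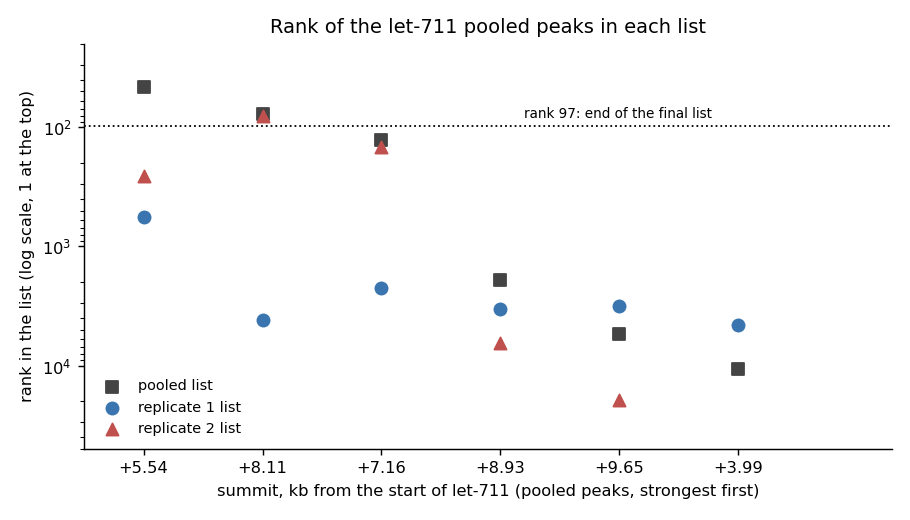
Rank (log scale, 1 at the top) of the 6 pooled peaks of let-711 in the pooled list and of the best overlapping peak in each replicate list, with the peaks ordered by pooled rank and named by the distance of the summit from the gene start in kb. The dotted line marks rank 97, the end of the final list: 2 pooled peaks and 1 replicate 2 peak lie above it, and the pooled peak of rank 10754 has no replicate 2 point.

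A further peak stood at the end of the gene in the replicate lists only. In replicate 2 it covered chrIII:6958031-6958320 with a signal value of 24.0 (rank 236), slightly above the 23.8 of the exon 11 peak in that list. Its summit was in the last coding exon, exon 18, and 45.9% of its bases were coding. In replicate 1 a peak in the same place had a signal value of 6.19 (rank 24188), close to the lowest of that list, 5.52. The nearest pooled summit was 1804 bp away. Of the 209 nuclear peaks in replicate 2 with rank 236 or better, 11 (5.26%) were overlapped by no pooled peak.

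On build ce10, the authors' final list was shorter, with 66 peaks. It held 3 peaks on chromosome III, with signal values of 83.4, 43.1 and 42.3, whereas the ce11 list held 8 on this chromosome. The lowest signal value in the ce10 list was 39.9. The third of these values, 42.3488, equals that of the exon 11 peak of let-711 on ce11. The second final peak of let-711 had 39.384 on ce11, below the lowest value of the ce10 list. The ce10 peaks were not placed on genes, so which of them lay in let-711 was not determined. Whether let-711 held 2 final peaks on ce10 is therefore not known, and the counts of final peaks given here hold for ce11.

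How the number of peaks in let-711 stood among genes of like length depended on which peaks were counted. There were 302 other protein-coding genes within 10% of its length, with a median of 4 pooled peaks (quartiles 1 and 6), and 28.8% of them held 6 or more (exact Clopper-Pearson 95% interval 23.8 to 34.3, which covers the counting of genes only). In the list of replicate 1 alone 18.5% held as many as let-711 did there, and in that of replicate 2 alone 28.1%. When the 5000 highest pooled peaks alone were counted, let-711 held 4 and 2.98% of these genes held as many. That count is not independent of the choice of let-711, which was made on high peaks. Among the 39 genes within 10% of its coding length the median was 8 (quartiles 6 and 11.5), and 79.5% held 6 or more (interval 63.5 to 90.7). Over the whole pooled list let-711 thus held fewer peaks than the median gene of like coding length.

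The height of the peaks, by which let-711 was chosen, differed from that of its peers. The highest pooled peak of a gene had a median rank of 4084 over the 229 genes of like length that held any, and of 1270 over the 36 such genes of like coding length. Of the 302 genes, 4 held a final peak, Y57A10A.31, chd-7, gly-9 and pqn-72, and 1 had a better rank than 46. Of the 39, 1 held a final peak, unc-73, and 0 had a better rank. These values belong to the choice of let-711 and carry no test.

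On build ce11, only 4 of the 19973 genes, 0.0200%, held 2 or more final peaks, and let-711 was among them. The largest number was 3, in W05F2.4, with signal values of 40.1 and 44.4 in coding exons and 38.9 in an intron. Y69A2AR.18 had 44.4 and 39.1, both in coding exons. For Y17D7C.1 the values were 80.8 upstream of the gene and 49.6 in an intron. The final peaks of let-711, at 42.3 and 39.4, were near the median of the nuclear final peaks, 40.1. In coding sequence all the others were shorter than let-711, with 234 bp in Y17D7C.1, 897 bp in Y69A2AR.18 and 6030 bp in W05F2.4.

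**Figure D3:**
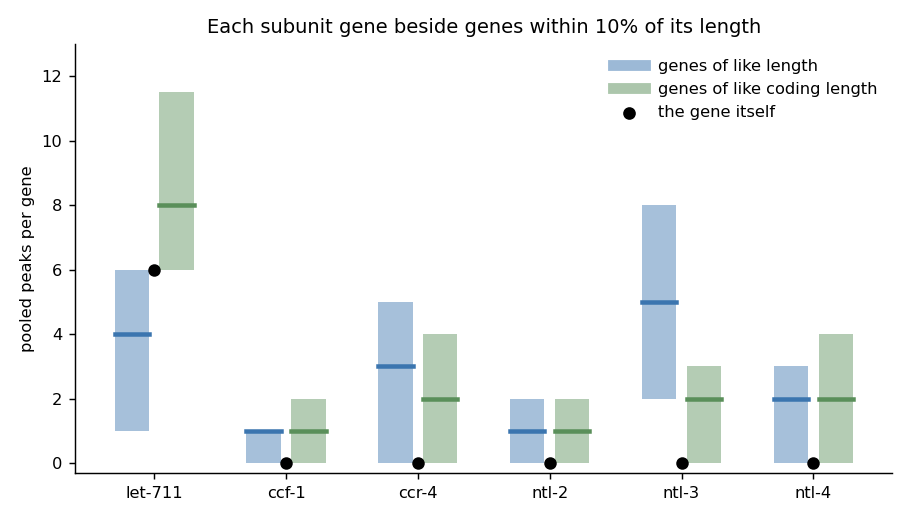
Pooled peaks per gene for the 6 subunit genes (black points) beside genes within 10% of their length (blue) or of their coding length (green), where boxes span the quartiles and thick lines are medians. The point of let-711 lies at 6, at the upper quartile for length and the lower quartile for coding length, and the other 5 genes lie at 0.

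The deadenylase genes ccf-1 and ccr-4 held no peak. The gene ccf-1 (WBGene00000369, chrIII:11918828-11920237, minus strand) is short, with 930 bp of coding sequence in 3 coding exons. Of 1884 genes of like length 42.6% also held 0 pooled peaks, so that its lack of peaks was common for its size. The nearest pooled summit was 10549 bp from the gene, with a signal value of 20.5 (rank 7957), and the nearest final peak was 632095 bp away.

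The second enzyme gene, ccr-4 (WBGene00000376, chrIV:12361542-12371852, plus strand), is 10311 bp long and encodes 677 residues in 5 coding exons of its longest coding transcript. It overlaps the noncoding gene ZC518.6 and the small coding gene ZC518.8, which held 0 pooled peaks as well. Of 381 genes of like length 27.0% held 0 pooled peaks, and the median was 3. The nearest pooled summit, in the neighbour atz-1, was 4202 bp away with a signal value of 17.6 (rank 14523). In replicate 2 the nearest summit, also in atz-1, had 23.5 (rank 284) at 3161 bp. A final peak stood 10166 bp upstream of ccr-4 in best-22, a bestrophin-family gene, with 42.5 (rank 45), next in rank to the first peak of let-711.

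The genes of the NOT module, ntl-2 and ntl-3, were also without peaks. For ntl-2 (WBGene00003825, chrII:4372739-4376465, minus strand), with 1351 bp of coding sequence and 12 annotated transcripts, 38.1% of 1316 genes of like length held 0 pooled peaks. The nearest pooled summit was 8799 bp away in lat-2, a latrophilin gene, at 26.6 (rank 1913).

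The gene ntl-3 (WBGene00003826, chrIII:11831012-11846465, minus strand) is the longest of the set at 15454 bp, of which 2103 bp are coding. Of 200 genes of like length, 14.5% held 0 pooled peaks and the median was 5, while of 1004 genes of like coding length 34.2% held 0 and the median was 2. Its nearest pooled summit was 18387 bp away at 20.2 (rank 8559). Within 10000 bp on either side of ntl-3 there was no peak in any of the lists.

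The ubiquitin ligase gene ntl-4 (WBGene00003827, chrIV:7910575-7915189, plus strand) has 2394 bp of coding sequence and 12 coding exons in its longest coding transcript. Among 1061 genes of like length 32.6% held 0 pooled peaks. The nearest pooled summit lay 7724 bp downstream in xpo-3, with a signal value of 33.0 (rank 349). That peak was the highest of the nearest pooled peaks around these 5 genes.

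**Figure D4:**
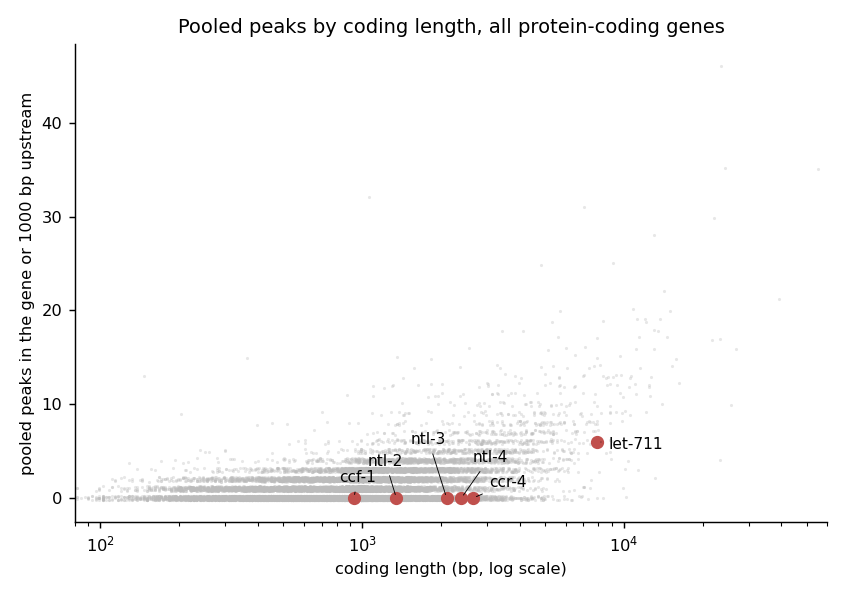
Number of pooled peaks (vertical axis, points jittered) against coding length (bp, log scale) for every protein-coding gene (grey) with the 6 subunit genes in red. The gene let-711 stands at 7923 bp with 6 peaks, and the other 5 lie between 930 and 2655 bp with 0 peaks.

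The 5 genes without peaks lay in stretches of 24186 to 66587 bp that held no pooled summit. No pooled summit fell in the 66587 bp around ntl-3, from chrIII:11812625-11879212, and 2.09% of protein-coding genes lay in a stretch as long or longer. The stretch around ccf-1 measured 49844 bp, with 5.46% of genes in one as long. For ntl-4 it was 30405 bp (14.6% of genes), for ccr-4 24678 bp (19.5%) and for ntl-2 24186 bp (20.2%). These shares are over all protein-coding genes, where a gene with a summit inside counts as lying in no stretch. They were not matched for length and in part restate that the 5 genes held no summit. The stretch of ccf-1, chrIII:11908279-11958123, is close to that of ntl-3, so the longest stretches come from 1 region. The stretches in the replicate lists were of like size, from 66672 to 67185 bp at ntl-3 and from 45927 to 49833 bp at ccf-1. The protein-coding gene directly next to each of these 5 genes on either side held 0 pooled peaks, whereas farther neighbours held some, with 1 in atz-1 near ccr-4 and 2 in xpo-3 near ntl-4. The direct neighbours lie at least in part within the same stretches, so their 0 in part restates the stretches. Of the genes directly next to let-711, abu-13 held 2 pooled peaks, with 0 in replicate 1 and 3 in replicate 2, and rpn-6.1 held 0.

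In base composition let-711 did not stand out from the other subunit genes. The GC content of its coding sequence was 44.0%, against 42.7% in ccr-4, 44.2% in ntl-4, 48.4% in ccf-1, 50.3% in ntl-2 and 51.2% in ntl-3. Over all protein-coding genes the median was 42.5%. At the 6 pooled summits of let-711 the GC content of the 101 bases ran from 41.6% to 45.5%, where the median was 39.6% over all pooled peaks in protein-coding genes and 47.5% over the nuclear final peaks.

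The window of 50 bp on each side of a summit was also searched, in both orientations, for CCAAT, the sequence that NF-Y is known to bind. CCAAT was present at 2 of the 6 pooled summits of let-711, those of ranks 77 and 5397. The share was 22.2% over all pooled peaks in protein-coding genes and 16.9% over the 71 nuclear final peaks. At the summit of rank 77 the centre of the nearest CCAAT, printed above in capitals, was 39 bp away. For the highest peak, of rank 46, it was 67 bp away, outside the bases shown, and for the peak of rank 127 there was none within 250 bp. In the 500 bp upstream of the gene start, CCAAT or its complement ATTGG was present in 4 of the 6 genes, once in let-711 and ccr-4 and 2 times in ntl-3 and ntl-4, against 64.2% of all protein-coding genes. A match describes the letters only, and the absence of one says nothing about NF-Y.

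The bases at the highest peak of let-711 were rich in the triplet CAA, as the printed sequence shows. On the printed strand CAA occurred 12 times in these 101 bases, and 2 times at each of the other 2 summits shown. Of the 24460 pooled peaks in protein-coding genes, 9 (0.0368%) had 12 or more CAA on either strand, this peak included, and the median was 3. That median allows either strand, so the counts of 2 CAA, from the printed strand alone, cannot be set against it. This triplet was counted after the sequence had been seen.

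Other genes of poly(A) tail shortening and messenger RNA decay were examined as lists of known members, given by counts beside the 58.7% of all genes with a pooled peak. No final peak lay in any of the 59 annotated genes outside the set, and 38 of them, 64.4%, held a pooled peak. Of 6 further CCR4-NOT subunits and other deadenylases 3 held a pooled peak. They were ntl-11, the CNOT11 homologue (signal value 20.3, rank 8392), and parn-1 (16.0, rank 19785) and parn-2 (15.5, rank 21806), which are homologues of the poly(A)-specific ribonuclease PARN. The scaffold-binding subunit gene ntl-9 and both genes of the PAN2-PAN3 deadenylase, panl-2 and panl-3, held 0 pooled peaks.

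RNA-binding proteins and microRNA effectors, many of which bring CCR4-NOT to messages, held a pooled peak in 15 of 24 genes. The highest was in mex-3, which encodes a KH-domain regulator of embryonic translation, with 33.5 (rank 289). It was followed by the Argonaute gene alg-2 with 33.3 (rank 308), spn-4 with 31.7 (rank 477) and the Nanos family gene nos-1 with 26.1 (rank 2117). The first 3 had ranks of 176, 727 and 1013 in replicate 2, but 1902 for mex-3 and 5782 for alg-2 in replicate 1, and the spn-4 peak was not overlapped in that list.

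The list of poly(A)-binding proteins, cytoplasmic poly(A) polymerases and their partners held a pooled peak in 4 of 6 genes. The polymerase gene gld-2 had 32.8 (rank 370) in an intron, its partner gene rnp-8 had 30.3 (rank 729), gld-3 had 24.9 (rank 2960) and the poly(A)-binding protein gene pab-1 had 19.4 (rank 10184).

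Genes of decapping and 5′ decay, the steps that follow deadenylation, held a pooled peak in 6 of 12 cases. The highest were car-1 with 25.4 (rank 2605), the genes edc-4 and edc-3 of decapping enhancers with 23.9 (rank 3724) and 23.7 (rank 3898), and lsm-1 with 22.1 (rank 5598). In replicate 1 and replicate 2 the ranks were 2437 and 2629 for car-1, 1750 and 17318 for edc-4, and 14819 and 4065 for edc-3. The lsm-1 peak had rank 9519 in replicate 2 and was not overlapped in replicate 1.

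Genes of the exosome, which degrades RNA from the 3′ end, held a pooled peak in 10 of 11 annotated cases. A peak of the replicate 1 list lay in 10 of the 11, and a peak of the replicate 2 list in 8. The subunit genes exos-9, exos-8, exos-7 and exos-4.2 had 32.3 (rank 406), 31.9 (rank 459), 31.1 (rank 575) and 30.8 (rank 626). In the same order their ranks were 8856, 1521, 2291 and 2893 in replicate 1, and 274, 3063, 2331 and 1416 in replicate 2. The share with a pooled peak is above that of all genes, but the list is short and no test was run on it. The first peak of let-711, at 42.3, was higher than the highest of these 59 genes, 33.5 in mex-3, and let-711 was chosen for that height.

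**Figure D5:**
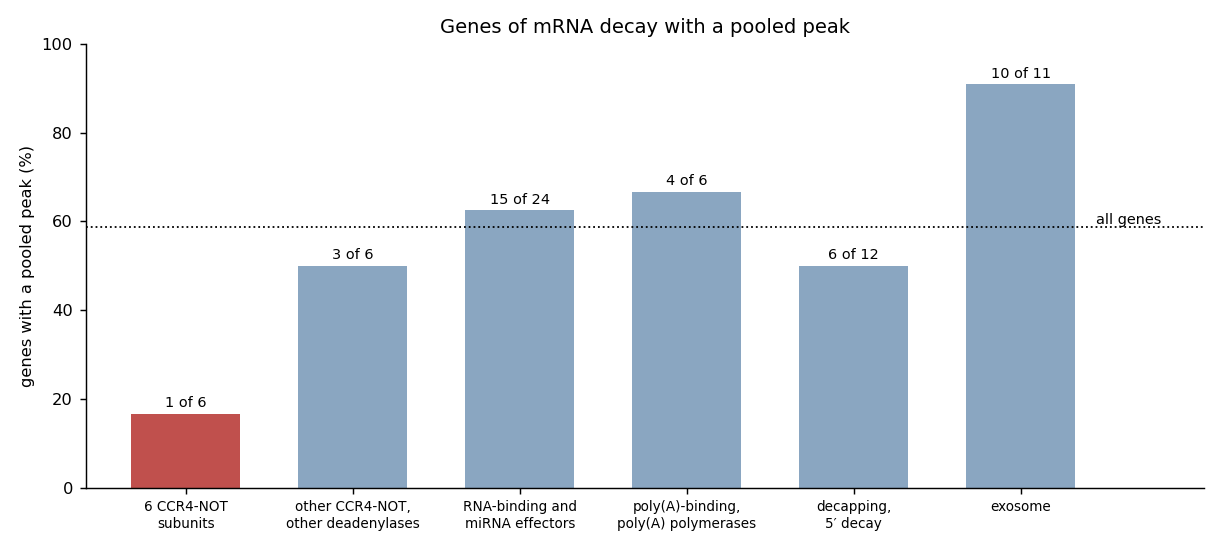
Percent of annotated genes with a pooled peak in the 6 CCR4-NOT subunit genes (red) and in 5 lists of related genes (blue), with the count over each bar and the share of all protein-coding genes, 58.7%, as a dotted line. The 6 subunit genes have 1 of 6, which is let-711, chosen for its peaks, and the exosome has 10 of 11.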

How the data were processed

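Per the labels' protocols and the deposited descriptions of the files, peaks were called by the authors on each replicate and on both pooled, against 1 control file. The final list was thresholded with the irreproducible discovery rate, and the pooled list is named as peaks and background for this step. The sources used here name neither the aligner nor the peak caller. The deposited signal values served to order the peaks of 1 list and were not compared between lists as amounts. No depth could be given.

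Summits of the ce11 lists were placed on Ensembl release 115 genes. Peaks overlapping by 1 bp or more were taken as the same place. For each gene, all protein-coding nuclear genes within 10% of its length served as background. Coding length counted each base that is coding in any transcript of the gene. Sequences came from the RefSeq copy of WBcel235, on which the coding sequence of all 6 genes began with a start codon and ended at a stop. Gene assignment was tested on simulated data. Intervals came from scipy 1.17.1 and figures from matplotlib 3.10.9, with pandas 2.3.3 and numpy 2.4.6 under Python 3.11.15.

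The members, lists and measures were chosen with earlier results of these data known. The text names the 6 genes, up to 4 genes with the highest pooled peaks in each other list, genes with 2 or more final peaks, and neighbours. Genes beyond these, among them those of like length with a final peak and those that hold the nearest peaks, were picked with their values already in view. The exosome list had 13 names, of which exos-5 and exos-10 matched no annotated symbol. Alternatives are given in the closing part. The ce10 lists before thresholding were not used.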

Additional observations from a re-analysis of the deposited data

How the results depend on the processing

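The 1 of 6 genes with a final peak did not change under any alternative run for it. Neither did the counts of 0 pooled peaks in the other 5 genes. For the final peaks only the upstream distance and the overlap rule were varied. The final summits of let-711 lie 5538 and 8106 bp from its start, and the nearest final peak to another member is 10166 bp away. These settings therefore could not change the 1 of 6, and the ce10 list was not among them. With 500 bp upstream or the 5000 highest peaks a count of 0 could not rise, so those settings say nothing about the 5 genes. The pooled count of let-711 stayed within 1.5 times of 6. The best rank of let-711, 46, was 569 with replicate 1 alone and 80 with replicate 2 alone. The share of genes of like length with as many peaks as let-711, 28.8%, was 79.5% by coding length, 2.98% with the 5000 highest peaks and 18.5% to 28.1% in the replicate lists alone. With the 5000 highest peaks fewer peaks are counted, so the shares with 0 rose by construction, to 87.2% for ccf-1, 59.8% for ccr-4, 78.2% for ntl-2, 49.0% for ntl-3 and 73.1% for ntl-4. For ccf-1 the share with 0 was 38.9% by coding length, 47.2% at 500 bp upstream and 36.3% at 2000 bp. For ntl-2 it was 35.1% at 2000 bp and 35.2% to 37.6% in the replicate lists alone, and for ntl-3 20.5% within 25% of the length and 34.2% by coding length. Pooled peaks of let-711 in both replicate lists fell from 5 to 3 among the 5000 highest of each, and to 4 with summits within 100 bp. Summits with CCAAT nearby went from 2 to 1 with 25 bp on each side and to 3 with 100 bp. Of 108 alternatives 89 stayed within the limits set and 19 moved. The 89 include settings under which a count of 0 could not rise. The cause was not tested. Depth is unknown, so its effect could not be given. No paired analysis was possible because there was 1 group.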
